A study of Mus musculus with 768 samples.

Results

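The DNA replication and S-phase genes described here are 42 genes chosen by symbol, from *Mcm2* to *Tcf19*, out of 24490 endogenous genes in the deposited tables, and all 42 were found in both the table of counts and the table of RPKM (reads per kilobase of gene model per 1000000 reads). They were followed in the 727 of 768 wells that held at least 10000 reads outside the ERCC spike-ins. Each well held 1 cell sorted from a mammary tumor of a 14-week-old mouse of the strain FVB/N-Tg(MMTVPyVT)634Mul/J, in which the mammary promoter MMTV drives the polyoma middle T oncogene. The sort took cells negative for EpCAM, CD45, CD31 and NG2, which the labels call cancer-associated fibroblasts (CAFs), and the libraries were made by Smart-seq2. All wells belong to 1 group with no control or treated arm. Tumor 1 gave 373 of the wells followed and tumor 2 gave 354, and each tumor filled 1 plate, so the replicate is the tumor (n = 2), and tumor and plate effects cannot be told apart.

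Before a cell copies its DNA, the origin recognition complex, CDC6 and CDT1 load rings of MCM2 to MCM7 onto the origins. At the start of S phase CDC45 and the GINS complex turn these rings into running helicases, and DNA polymerases follow, with PCNA as the sliding clamp, RFC as its loader and ribonucleotide reductase, thymidylate synthase and thymidine kinase supplying the building blocks. Many of these genes are switched on together late in G1 by E2F transcription factors, and mitotic genes such as *Top2a* and *Birc5* rise later, in G2 and M.

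Promoters are shown first, since many genes of this kind are known to carry an E2F site. The RefSeq promoters (GRCm38.p6, 250 bases before to 50 after each annotated start) were searched on both strands for TTTGGCGC, TTTCCCGC, TTTCGCGC and TTTGCCGC, forms of that site. At least 1 of these stood in 744 of all 32851 promoters (2.26%) and in 17 of 43 promoters that belong to 37 members (39.5%), and these 17 belong to 16 members. The 4 members whose level tracked the other 41 most closely over cells are printed 5′ to 3′ on the strand of the gene, with the matches in capitals.
Mcm3 (chr1:20820263-20820562, minus strand): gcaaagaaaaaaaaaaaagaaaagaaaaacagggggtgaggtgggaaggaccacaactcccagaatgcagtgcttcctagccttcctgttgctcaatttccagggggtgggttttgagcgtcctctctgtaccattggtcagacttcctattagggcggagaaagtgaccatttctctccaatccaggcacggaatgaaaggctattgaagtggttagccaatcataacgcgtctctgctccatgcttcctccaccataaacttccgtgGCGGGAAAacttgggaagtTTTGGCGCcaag
Mcm5 (chr8:75109259-75109558, plus strand): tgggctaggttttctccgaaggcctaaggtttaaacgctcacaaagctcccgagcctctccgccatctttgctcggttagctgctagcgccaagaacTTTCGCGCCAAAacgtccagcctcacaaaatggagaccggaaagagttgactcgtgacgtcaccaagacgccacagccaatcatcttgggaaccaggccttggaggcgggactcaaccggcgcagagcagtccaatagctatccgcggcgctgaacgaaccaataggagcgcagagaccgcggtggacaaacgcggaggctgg
Uhrf1 (chr17:56304063-56304362, plus strand, the later of 2 annotated starts): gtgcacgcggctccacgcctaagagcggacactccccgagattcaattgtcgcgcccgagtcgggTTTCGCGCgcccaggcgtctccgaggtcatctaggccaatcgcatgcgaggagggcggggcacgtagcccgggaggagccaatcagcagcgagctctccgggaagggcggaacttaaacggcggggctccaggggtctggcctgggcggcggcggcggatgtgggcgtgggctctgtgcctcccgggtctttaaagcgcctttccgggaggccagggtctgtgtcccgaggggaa
Tk1 (chr11:117825965-117826264, minus strand): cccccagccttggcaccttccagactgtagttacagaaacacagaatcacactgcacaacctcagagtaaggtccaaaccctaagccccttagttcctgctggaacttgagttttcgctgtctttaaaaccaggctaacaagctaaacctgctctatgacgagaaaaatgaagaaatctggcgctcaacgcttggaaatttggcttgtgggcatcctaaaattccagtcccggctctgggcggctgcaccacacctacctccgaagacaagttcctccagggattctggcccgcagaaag
In *Mcm3* the matches began 19 and 38 bases after the annotated start. In *Mcm5* 2 matches on opposite strands began 153 and 149 bases before the start and overlapped, and in *Uhrf1* the match began 185 bases before it. The *Tk1* window held none of these letters, and neither did the window of the earlier *Uhrf1* start. The MCM genes split, with a match for *Mcm3*, *Mcm5*, *Mcm6* and *Mcm7* and none for *Mcm2*, and *Mcm4* had no entry. A match is a description of the letters and not a bound site.

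Reads per cell were similar in both plates. The wells followed had 10281 to 838772 endogenous reads (median 219260) in tumor 1 and 10476 to 1190516 (median 198180) in tumor 2. Smart-seq2 has no molecular identifiers, so the exact 95% binomial intervals given for shares of cells cover counting error only.

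Most members were read in a minority of cells. The share of cells with at least 1 read, as the mean of both tumors, ran from 2.20% to 65.5% over the 42 members with a median of 12.6%. It exceeded 50% for 2 members, lay between 25% and 50% for 5, between 10% and 25% for 21 and under 10% for 14. *Pcna*, the sliding clamp, was read in 246 of 373 cells of tumor 1 (66.0%, interval 60.9 to 70.8) and in 230 of 354 of tumor 2 (65%, 59.8 to 69.9). *Slbp*, whose product binds the stem loop of histone mRNA, followed with 196 cells (52.5%) and 180 cells (50.8%), and *Rrm1*, the large subunit of ribonucleotide reductase, with 147 cells (39.4%) and 151 cells (42.7%). These 3 genes were the most widely read of the 42.

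At the other end stood *Exo1*, a DNA exonuclease, with 9 cells in tumor 1 (2.41%, 1.11 to 4.53) and 7 in tumor 2 (1.98%, 0.799 to 4.03). *Cdc6*, a loader of the MCM rings, was read in 16 cells (4.29%) and 8 cells (2.26%), and *Mcm10*, which acts when the helicase is started, in 14 cells (3.75%) and 11 cells (3.11%). The spread of detection among members was therefore wide while the tumors were close to each other. More cells of tumor 1 than of tumor 2 had a read for 23 members, and the reverse held for 19. The intervals of the tumors were apart for 1 member, *Mcm4*, with 33.8% of cells (29 to 38.8) in tumor 1 and 24% (19.7 to 28.8) in tumor 2. The share of all genes whose intervals were apart was not counted, so these counts are not a result particular to the members.

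**Figure D1:**
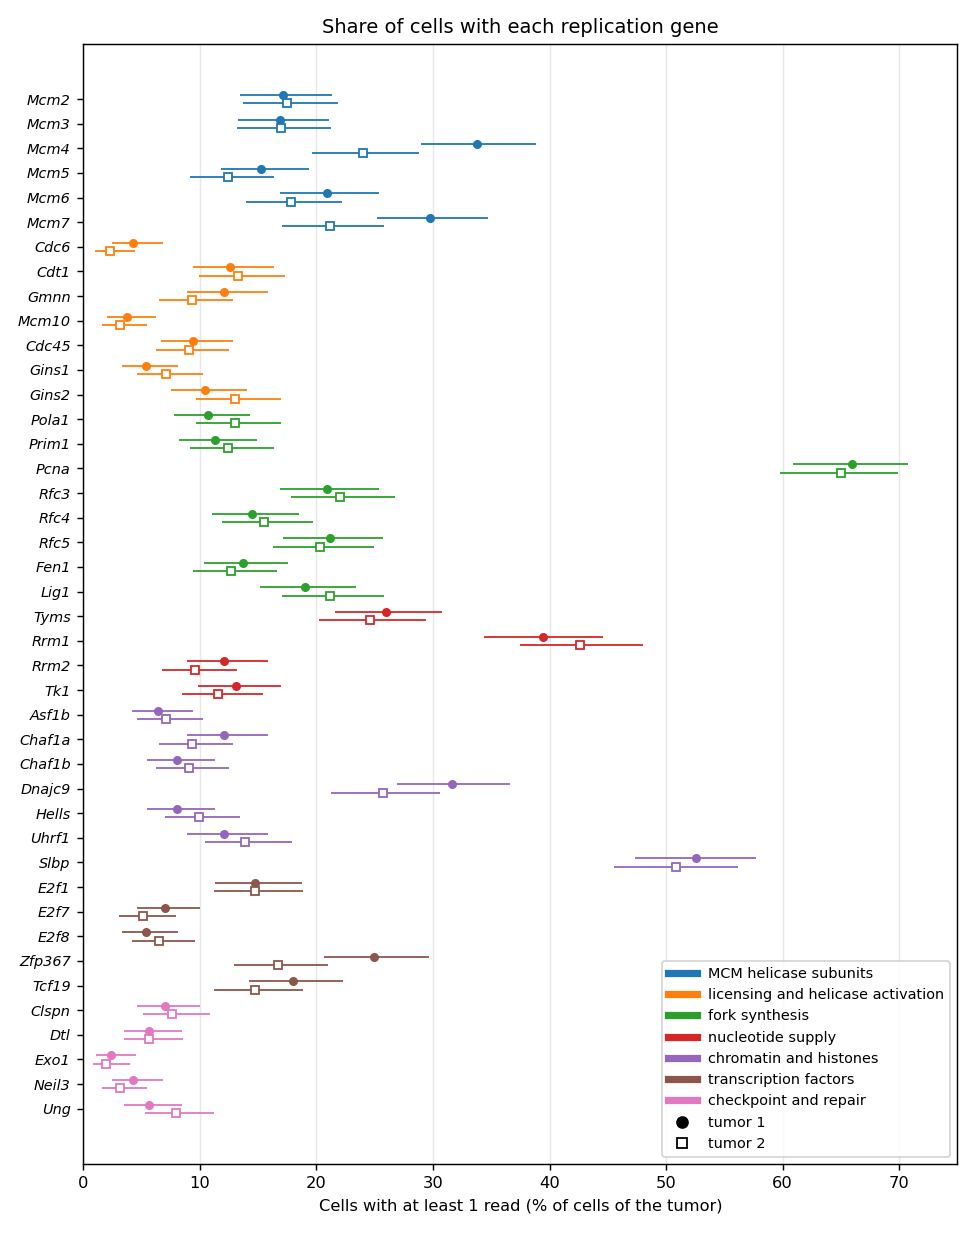
Share of cells with at least 1 read of each of the 42 genes (percent of the 373 cells of tumor 1, filled circles, and of the 354 cells of tumor 2, open squares), coloured by role. Bars are exact 95% binomial intervals for counting error; *Pcna*, *Slbp* and *Rrm1* stand apart on the right, and the intervals of the tumors overlap for every gene except *Mcm4*.

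On the scale per gene length, the 6 subunits of the MCM ring had mean levels of the same order over all cells. *Mcm6* and *Mcm4* were highest, at 16.8 ± 2.51 and 16.2 ± 3.61 RPKM (mean ± SD of 2 tumors), with 18.5 and 15.0 RPKM for *Mcm6* in tumors 1 and 2 and 18.8 and 13.7 for *Mcm4*. *Mcm3* had 12.3 and 8.73, *Mcm5* 11.9 and 8.07, *Mcm2* 10.5 and 8.30 and *Mcm7* 10.4 and 8.04 RPKM in tumors 1 and 2. Among the last 4, *Mcm3* was highest and *Mcm7* lowest within each tumor, by less than the difference between the tumors. The order of *Mcm6* and *Mcm4* changed from tumor to tumor.

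Among the enzymes of nucleotide supply, *Rrm1* had the highest mean level, 24 RPKM in tumor 1 and 24.5 in tumor 2. *Rrm2*, the small subunit of the same reductase, had 13.9 and 8.14 RPKM and was read in 45 and 34 cells, so that the 2 subunits differed more in the number of cells than in mean level. *Tk1*, thymidine kinase, had 10.4 and 7.41 RPKM and was read in 49 and 41 cells. *Tyms*, thymidylate synthase, had 6.87 and 6.75 RPKM but was read in 97 and 87 cells. *Pcna* had the highest mean of all members, 42.4 and 40.9 RPKM. As the mean of both tumors *Exo1* was lowest, with 0.720 and 0.320 RPKM, though *Mcm10* was below it in tumor 2 (0.865 and 0.249 RPKM).

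Among the other genes of fork synthesis, the clamp loader subunits *Rfc3* and *Rfc5* were read in 78 and 79 cells of tumor 1 and 78 and 72 of tumor 2, and *Rfc4* in 54 and 55. *Lig1*, the ligase that joins lagging strand fragments, was read in 71 and 75 cells, and *Fen1*, the nuclease that trims them, in 51 and 45. *Prim1*, the primase, was read in 42 and 44 cells and *Pola1*, the polymerase it works with, in 40 and 46. The intervals of the tumors overlapped for each of these fork genes.

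Of the genes around licensing, *Gmnn*, geminin, the inhibitor of CDT1, was read in 45 and 33 cells and *Gins2* in 39 and 46. Of the chromatin genes, *Chaf1a*, partner of *Chaf1b*, was read in 45 and 33 cells, *Hells*, a chromatin remodeler, in 30 and 35, and *Asf1b*, a histone chaperone, in 24 and 25. *Zfp367*, a zinc finger factor, was read in 93 and 59 cells, and *Dtl*, which directs CDT1 to degradation, in 21 and 20. *Zfp367* had the widest gap among these, with 24.9% of cells of tumor 1 and 16.7% of tumor 2, and its intervals still overlapped.

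To count how many members a cell carried, each cell was thinned to 50000 endogenous reads, which left out 19 cells of tumor 1 and 28 of tumor 2 that were shallower and kept 680. The median cell had reads of 4 members in each tumor, and 22 cells had none. A long tail followed, with 25 cells at 10 to 19 members, 20 at 20 to 29 and 26 at 30 to 42. A cell with at least 10 members was called replication-high. There were 38 such cells of 354 in tumor 1 (10.7%, 7.71 to 14.4) and 33 of 326 in tumor 2 (10.1%, 7.07 to 13.9), which is 10.4% ± 0.433 (mean ± SD, n = 2 tumors). The limit fell where cells were few. There were 23 cells with 8 members, 8 with 9, 5 with 10 and 1 with 11.

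MCM subunits came together in these cells. All 6 were read in 34 cells and exactly 5 in 14 cells, and each of these 48 cells was replication-high. Of the 609 cells below the limit, 319 had no MCM subunit, 204 had 1, 62 had 2, 21 had 3 and 3 had 4. Since MCM genes count toward the limit, these numbers describe the cells and test nothing. In the 71 replication-high cells the mean level was 83.3 ± 22.5 RPKM for *Mcm3*, 72.3 ± 15.0 for *Mcm2*, 80.7 ± 7.67 for *Mcm4*, 80.6 ± 18.7 for *Mcm5*, 119 ± 17 for *Mcm6* and 53.9 ± 7.54 for *Mcm7* (mean ± SD of 2 tumors). *Mcm6* was above each other subunit and *Mcm7* below each other subunit within tumor 1 and within tumor 2.

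The replication-high cells were then set against a list of 32 mitotic genes that includes *Top2a*, *Birc5*, *Mki67* and *Cdk1*. A cell was taken as low in mitotic genes when it had no read of *Top2a* and *Birc5* and at most 2 of the 32. This left 14 of the 71, with 10 of 354 cells in tumor 1 (2.82%, 1.36 to 5.13) and 4 of 326 in tumor 2 (1.23%, 0.335 to 3.11). The median of the 14 was 1 mitotic gene, and 4 replication-high cells, all of tumor 1, had no read of any of the 32. The share, 2.03% as the mean of the tumors, was 0.565% for cells with no mitotic read and 4.82% with the limit at 8 members. At the other side, 39 replication-high cells had at least 10 mitotic genes, 20 in tumor 1 and 19 in tumor 2, and 18 lay in between. The limit of 10 mitotic genes was chosen after the values were seen. Another 13 cells had at least 10 mitotic genes and were not replication-high, 6 in tumor 1 and 7 in tumor 2. All 4 combinations of replication and mitotic genes were thus present in both tumors, and the intervals of the share low in mitotic genes overlapped between tumors.

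**Figure D2:**
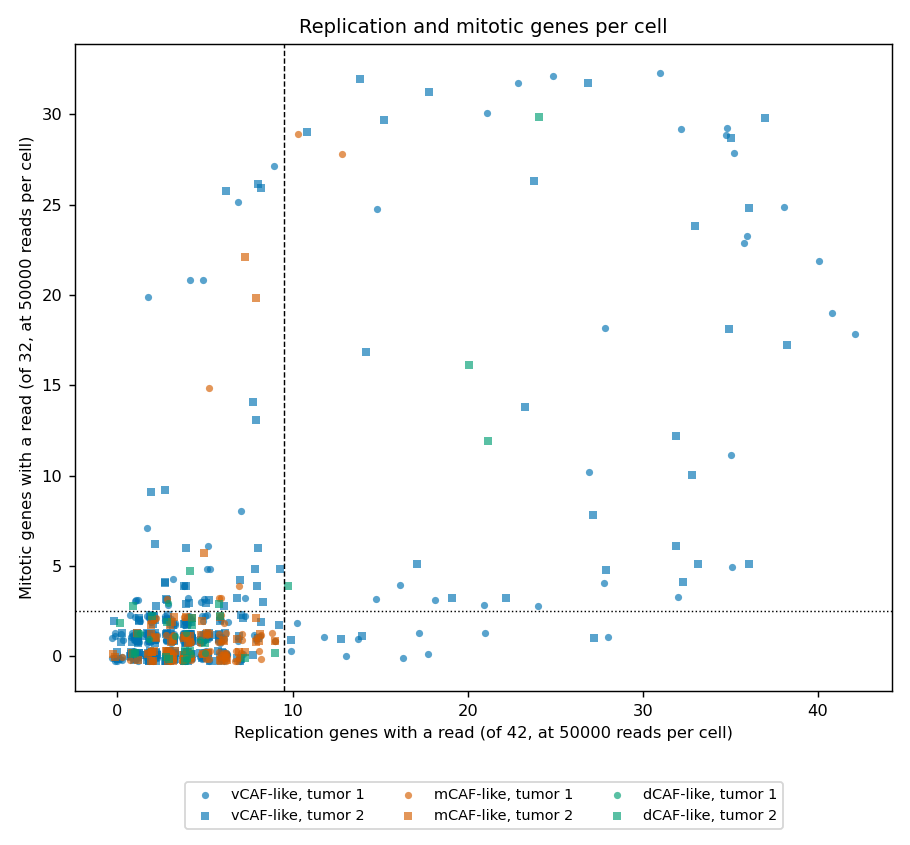
Each point is 1 of 680 cells thinned to 50000 reads, with the number of the 42 replication genes read on the horizontal axis and the number of the 32 mitotic genes on the vertical axis, moved slightly at random to part overlapping points. The dashed line marks 10 replication genes and the dotted line more than 2 mitotic genes; the points at the lower right include the 14 replication-high cells low in mitotic genes, and those at the upper left include the 13 cells with at least 10 mitotic genes that were not replication-high.

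Members were read unevenly in the 14 cells low in mitotic genes. *Mcm2*, *Pcna* and *Dnajc9*, a histone chaperone, were each read in 13 of 14, and *Mcm3*, *Mcm4*, *Mcm6* and *Rrm1* in 12 of 14. *Mcm5* was read in 10 and *Mcm7* in 7. Over all cells followed, without thinning, *Pcna* was read in 65.5%, *Rrm1* in 41.0%, *Mcm4* in 28.9% and *Dnajc9* in 28.7%. *Mcm7* was read in 25.5% of them, *Mcm6* in 19.4%, *Mcm2* in 17.3%, *Mcm3* in 16.9% and *Mcm5* in 13.9%. The part of this general detection in the pattern was not tested. The mean level of *Mcm3* was 94.5 RPKM in these 14 cells, 102 in the 18 in between and 72.6 in the 39 with at least 10 mitotic genes, and that of *Mcm6* was 118, 129 and 117 RPKM. *Mcm7* was lower in the 14 cells, with means of 22.9, 76.6 and 55.2 RPKM in the same order, and *Pcna* likewise, with 90.7, 179 and 232 RPKM. These means pool the tumors, with 10 and 4, 8 and 10, and 20 and 19 cells of tumors 1 and 2 in that order. Over all replication-high cells *Mcm3* had 99.2 RPKM in tumor 1 and 67.4 in tumor 2. The part of the tumor in the class means was not tested.

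Several members of licensing, helicase activation, nucleotide supply and repair were rare in the same 14 cells. *Mcm10*, *Exo1* and *Neil3*, a DNA glycosylase, were read in 0 of 14, which with so few cells still allows a share of up to 21.4%, taking 3 cells as the limit of a count of 0. These 3 were rare over all cells followed as well, at 3.43%, 2.20% and 3.70% without thinning. *Cdc45*, *Gins1*, *Cdc6*, *Chaf1b*, a subunit of the chromatin assembly factor, and *Clspn*, the checkpoint adaptor claspin, were each read in 1 of 14, and *Rrm2* in 2. In the 39 cells with at least 10 mitotic genes, *Cdc45* and *Gins1* were each read in 23, *Clspn* in 28 and *Rrm2* in 34. *Rrm2* had a mean of 4.66 RPKM in the 14 cells, 21 in the 18 in between and 162 in the 39, and *Tk1* had 5.89, 47.2 and 118 RPKM in that order. *Tyms* followed the same order with 11, 29 and 59.5 RPKM.

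Over the roles, the median share of cells with a read in the 14, 18 and 39 cells was 85.7%, 91.7% and 73.1% for the 6 MCM subunits. For the 7 genes of licensing and helicase activation it was 7.14%, 44.4% and 59.0%, for the 8 genes of fork synthesis 39.3%, 66.7% and 73.1%, and for the 4 of nucleotide supply 32.1%, 66.7% and 91.0%. The MCM genes were thus the role whose median share in the 14 cells was closest to that in the other replication-high cells among these 4 roles. *Ung*, the uracil DNA glycosylase, took another course. It was read in 3 of 14, 12 of 18 and 7 of 39 cells. The number of members read chose these cells, so the sets are described and not tested. The median number of members was 14 in the 14 cells, 25.5 in the 18 and 31 in the 39. Read depth was close, with medians of 239520, 266600 and 251360 endogenous reads. Genes detected rose from a median of 4831 to 5276.5 and 5824, and the share of ERCC reads was 11.5%, 8.73% and 7.14%. The part of these differences in the result was not tested.

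**Figure D3:**
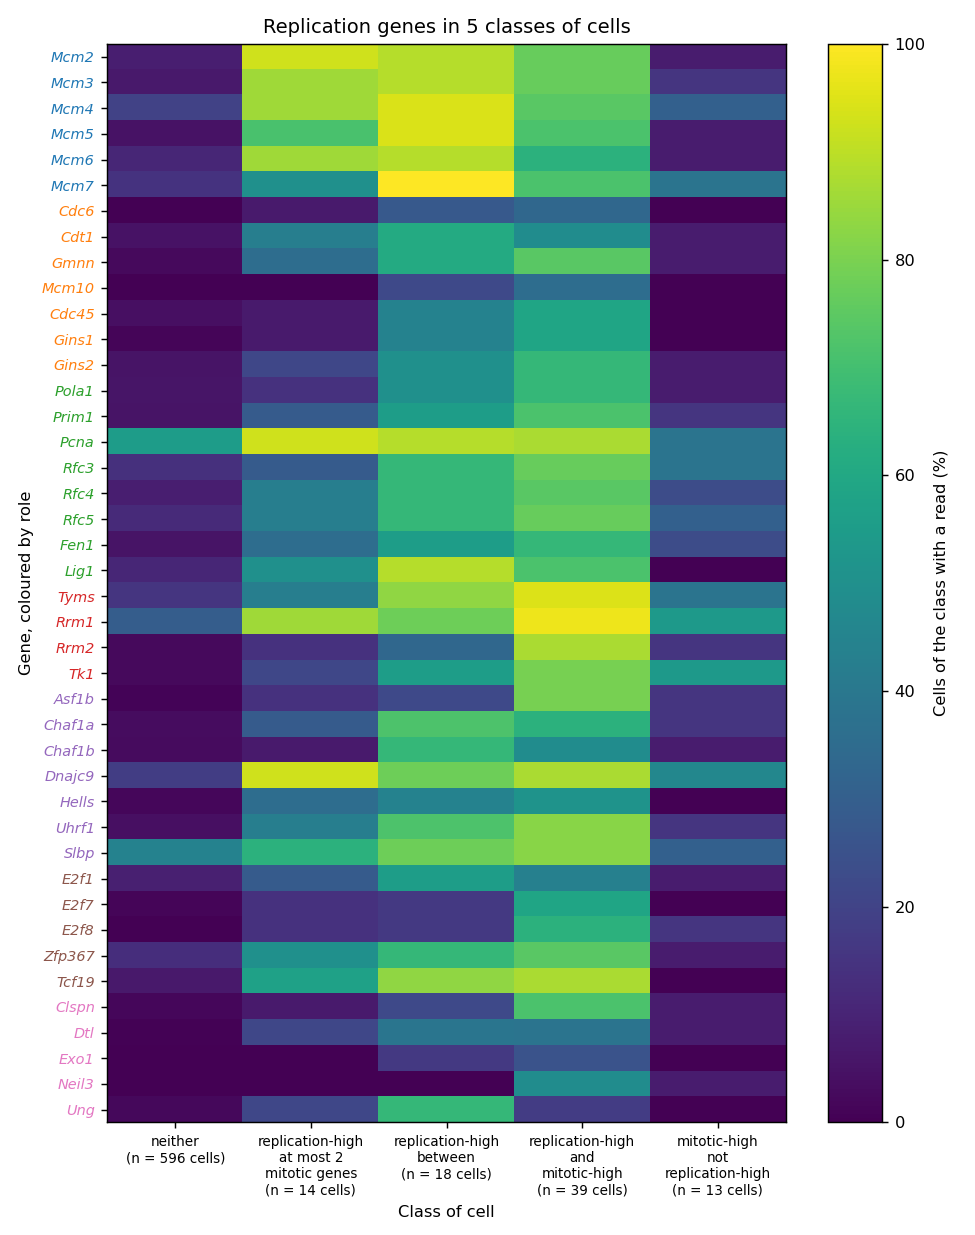
Percent of cells of 5 classes with a read of each replication gene at 50000 reads per cell, with gene names coloured by role as in the plot of shares. The MCM rows are bright in all 3 replication-high classes except *Mcm7*, read in 50% of the 14 cells low in mitotic genes, while *Rrm2*, *Tk1*, *Clspn*, *Cdc45* and *Gins1* are dark in the 14 cells low in mitotic genes and bright in the 39 with at least 10 of them.

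The 13 cells with at least 10 mitotic genes that were not replication-high had fewer than 10 members by definition. *Tk1* and *Rrm1* were each read in 7 of 13 and *Dnajc9* in 6, and 10 members were read in none of them. *Mcm2* was read in 1 of 13 and had a mean of 0.440 RPKM there. In the 596 cells with neither set, *Pcna* was read in 330 and *Slbp* in 264. *Exo1* and *Mcm10* were read in 0 of 596. Reads of *Pcna* and *Slbp* were thus common in cells with few members, and reads of *Exo1*, *Mcm10*, *Cdc6* (1 of 596), *E2f8* (1 of 596) or *Neil3* (1 of 596) were not.

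Of the genes that control the passage from G1 to S, *Ccnd1*, cyclin D1, was read in 13 of the 14 cells low in mitotic genes with a mean of 124 RPKM, in all 18 in between with 167, in 33 of 39 with 68.3 and in 270 of 596 with 32.9 RPKM. *Ccne1* and *Ccne2*, the E cyclins, were read in 0 and 1 of the 14 cells but in 14 and 19 of the 39. *Cdkn1a*, the CDK inhibitor p21, was read in 7 of 14 and 32 of 39 cells. These genes did not choose the cells, and cells of 1 tumor are not replicates, so the values are given without a test. The 14 cells were all vCAF-like, while the 596 held 136 mCAF-like and 31 dCAF-like cells, so these classes also differ in population.

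Markers of other cell types were sparse in the 14 cells. *Epcam* was read in 2 of them, and at most 2 of the 9 epithelial markers were read in any cell. Of the 6 endothelial markers, *Emcn* gave all 714 reads, in 9 cells, and *Pecam1*, *Cdh5*, *Tie1*, *Kdr* and *Tek* were at 0. The immune markers *Ptprc*, *Cd68*, *Csf1r* and *Lyz2* were at 0. Among the 39 cells with at least 10 mitotic genes, *Epcam* was read in 1, *Cdh1* and *Cldn3* in 4 each and *Krt8* and *Krt18* in 3 each, and 1 cell had 7 of the 9 epithelial markers. The part of these reads in the values of the 39 was not tested.

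Outside the 42, the genes whose level was most like the summed level of the members over the 680 cells were *Smc2* and *Ncaph*, subunits of condensin, *2810417H13Rik*, *Tpx2*, *Mki67*, *Top2a*, *Ckap2l*, *Spc24*, *Mxd3* and *Spc25*. Their Spearman correlations ran from 0.418 for *Smc2* to 0.360 for *Spc25*, and members themselves had 0.172 (*Slbp*) to 0.439 (*Mcm3*) with the sum of the other 41. All are modest values, over cells that share depth and plate. Of the 10, *Tpx2*, *Mki67* and *Top2a* belong to the mitotic list that chose the 14 cells low in mitotic genes. Of the other 7, *Smc2* was read in 71.4% of these 14 cells and *2810417H13Rik* and *Mxd3* in 0%.

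The cells were next divided by type, with the members and all other genes that followed the cell cycle left out of the clustering, so that cycling cells joined the type they otherwise resembled. The study names a vascular (vCAF), a matrix (mCAF) and a developmental (dCAF) type, and the populations were named from markers of these. The vCAF-like cells numbered 285 in tumor 1 and 254 in tumor 2, the mCAF-like cells 77 and 66 and the dCAF-like cells 10 and 29, and 6 cells led by red cell genes stayed unnamed. Of the 39 dCAF-like cells, 10 (1 and 9 by tumor) formed a cluster of their own, left unnamed, when the distance for joining cells was 2.0 or when cell cycle genes were kept, and in these 10 each mCAF marker was read in 72.7% and each dCAF marker in 33.3% of cells on average. Without them 3 members were called between vCAF-like and dCAF-like cells in place of the 4 given further on. Averaged over its markers, each of 10 vCAF markers was read in 92.0% of vCAF-like cells, each of 11 mCAF markers in 95.7% of mCAF-like cells and each of 6 dCAF markers in 74.8% of dCAF-like cells. Each of 9 epithelial markers was on average read in 3.38%, 5.52% and 19.4% of the cells of these populations in that order, so epithelial markers were read in the largest share of dCAF-like cells, and the part of these reads in their values was not tested.

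Replication-high cells were mostly vCAF-like. They made up 36 of 269 vCAF-like cells in tumor 1 (13.4%, 9.55 to 18) and 29 of 235 in tumor 2 (12.3%, 8.42 to 17.2). In mCAF-like cells they were 2 of 75 (2.67%, 0.325 to 9.30) and 0 of 66, which allows up to 4.55% when 3 cells are taken as the limit of a count of 0 (exact upper bound 5.44%). In dCAF-like cells they were 0 of 10, which allows up to 30.0% by the same limit (exact 30.8%), and 4 of 25 (16%, 4.54 to 36.1). The intervals of vCAF-like and mCAF-like cells were apart in both tumors at the limit of 10 members, and those of dCAF-like cells overlapped both. This separation rests on that limit. Several mCAF-like cells of each tumor had 8 or 9 members, so a limit of 8 brings the mCAF-like shares closer to the vCAF-like ones. All 14 cells low in mitotic genes were vCAF-like, and out of 141 mCAF-like and 35 dCAF-like cells none was of this kind at the limit of 10. Below it, mCAF-like cells of tumor 1 had 8 members and 0 mitotic genes, and a dCAF-like cell of tumor 2 had 9 and 0. They would join this kind at a limit of 8, so it is not particular to vCAF-like cells there. No test was made of these shares.

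Reads of the cells of each population were then summed per tumor, which gave 6 libraries of 2539699 (dCAF-like, tumor 1) to 57977764 (vCAF-like, tumor 1) endogenous reads. A value of such a sum does not by itself tell more cells with a gene from more RNA of it per cell. All 42 members together had 1467 and 1202 RPM (reads per 1000000 endogenous reads) in vCAF-like cells of tumors 1 and 2, 474 and 367 in mCAF-like cells and 369 and 500 in dCAF-like cells. Without the replication-high cells these became 449 and 463, 451 and 367, and 369 and 289. The replication-high cells, chosen by the members themselves, held 74.2% and 67.5% of the member reads of the vCAF-like libraries and 8.32% and 0% of those of the mCAF-like ones.

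Between vCAF-like and mCAF-like cells, the members were on the whole higher in vCAF-like cells, but few passed the test. *Mcm2* had 57.1 and 43.5 CPM (counts per 1000000, scaled by TMM) in the vCAF-like libraries of tumors 1 and 2 and 3.11 and 8.31 in the mCAF-like ones. *Cdt1*, the MCM loader, had 18.8 and 19.2 CPM against 2.07 and 2.27, and *E2f7*, a repressing E2F factor, had 13.8 and 10.7 CPM against 0.0545 and 0, that is 1 read in all. The groups did not overlap for any of these 3. They were higher by 3.14 ± 0.60 (*Mcm2*, log2 difference ± SE, adjusted p = 0.043 by edgeR's quasi-likelihood test), 3.13 ± 0.59 (*Cdt1*, adjusted p = 0.042) and 8.46 ± 1.34 (*E2f7*, adjusted p = 0.038). Against the 1 mCAF-like read, the ratio of *E2f7* was 494 with a counting interval of 88.5 to 19521.

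Those 3 of 39 members tested were called in a comparison that called 2.36% of 11715 genes as higher in vCAF-like cells and 6.04% in either direction, and no member was among the 3.68% called higher in mCAF-like cells. The tumor is shared by the libraries compared, and with the tumor as a block 0 of the 39 were called (adjusted p = 0.093 for *Mcm2*, 0.10 for *Cdt1* and 0.10 for *E2f7*, edgeR), while 10 had an unadjusted p under 0.05 without the block. Both vCAF-like libraries were above both mCAF-like ones for 36 of the 39, which was so for 31.5% of all genes, and both were below for 1 member against 28.8% of all genes. The median log2 difference was 2.10 over the members and 0.04 over all genes. A gene had to reach a mean of 1 RPKM over cells to be tested, and most cells were vCAF-like, so this filter favours genes high there. *Mcm10*, *Cdc6* and *Exo1* did not pass it, with 345 and 82, 518 and 142, and 366 and 174 reads in the vCAF-like libraries and 0 and 0, 16 and 1, and 0 and 0 in the mCAF-like ones. Without the filter the median over all 42 was 2.35.

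The members next in rank were *Clspn*, with 9.84 and 11.3 CPM against 1.20 and 0.852 (log2 difference 3.35 ± 0.81, adjusted p = 0.11, edgeR), and *Pcna*, with 80.6 and 71.9 CPM against 30.9 and 36.4 (1.18 ± 0.38, adjusted p = 0.17). The other MCM genes also stood higher in both tumors without passing. *Mcm5* had 70.2 and 43.2 CPM against 3.98 and 1.42, and *Mcm6* 85.2 and 72 against 12.1 and 0.284. *Mcm3* had 57.0 and 42.2 CPM against 7.68 and 4.40, *Mcm4* 96.1 and 76.6 against 40.8 and 11.4, and *Mcm7* 38.8 and 28.3 against 10.5 and 11.2. Their log2 differences were 1.63 to 4.38 with adjusted p of 0.21 to 0.55.

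The nucleotide genes did not move as 1 group. *Rrm2* had 52.9 and 26.6 CPM in the vCAF-like and 1.20 and 8.67 in the mCAF-like libraries (3.02 ± 0.99, adjusted p = 0.18, edgeR), *Tk1* 25.3 and 14.7 against 0.817 and 4.12, and *Tyms* 39.0 and 36.4 against 24.3 and 9.16. *Rrm1* had 114 and 129 CPM in vCAF-like and 172 and 148 in mCAF-like libraries, with the mCAF-like values above in both tumors (log2 difference −0.40 ± 0.27, adjusted p = 0.56). *E2f1*, an activating E2F factor, was the other member with a negative difference, at 21.5 and 17.6 against 29.4 and 17.7 CPM (−0.27 ± 1.15, adjusted p = 0.96). In single cells at 50000 reads, *Rrm1* was read in 48 of 75 mCAF-like cells of tumor 1 (64.0%, 52.1 to 74.8) and 37 of 66 of tumor 2 (56.1%, 43.3 to 68.3), against 69 of 269 vCAF-like cells (25.7%, 20.5 to 31.3) and 77 of 235 (32.8%, 26.8 to 39.2). These intervals were apart in both tumors, in the direction opposite to that of replication-high cells.

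When replication-high cells were left out of the sums, *Rrm1* had 38.2 and 54.8 RPM in vCAF-like cells and 140 and 126 in mCAF-like cells, and *E2f1* had 8.86 and 8.53 against 25.6 and 15.0. *Slbp* went the other way with 62.4 and 59.1 against 33.5 and 24.4, as did *Pcna* with 40.9 and 44.3 against 26.0 and 31.0. Of the 42 members, both vCAF-like values were above both mCAF-like ones for 19 and below for 6, in the cells below the limit. Over all 16696 genes with a read in the same cells these were 38.5% and 17.8%, so the members' counts lay near those of other genes. These 6 were *Rrm1*, *E2f1*, *Cdc45*, *Chaf1b*, *Asf1b* and *Cdc6*, and some members of both kinds were near 0, such as *Asf1b* with 0.184 and 0.402 against 1.28 and 1.39 RPM and *Neil3* with 0.348 and 0.709 against 0 and 0. The limit itself used the members, so these values are a description.

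**Figure D4:**
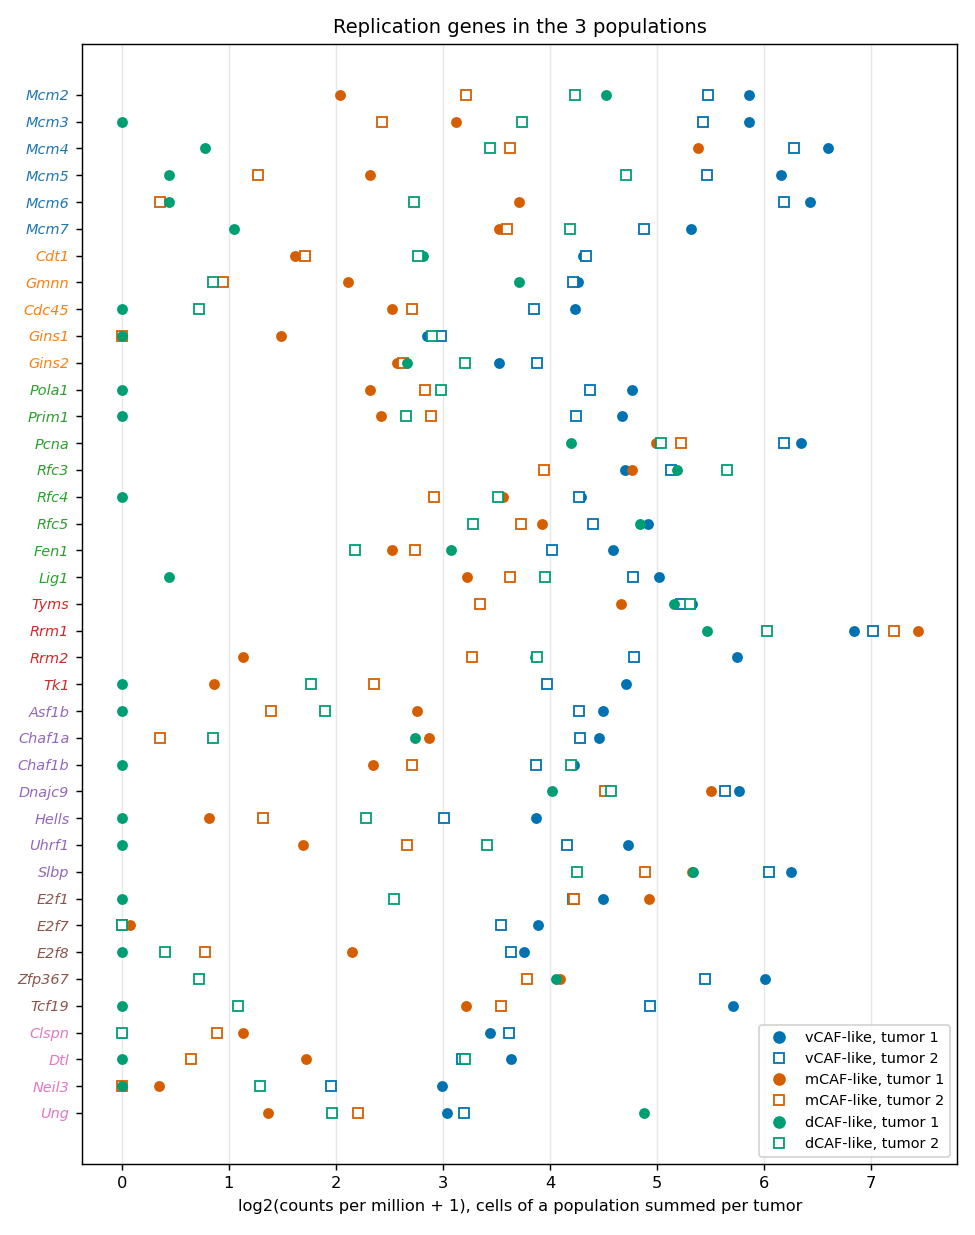
Level of the 39 tested replication genes in each population, as log2(CPM + 1) of the summed cells of tumor 1 (filled circles) and tumor 2 (open squares), with vCAF-like in blue, mCAF-like in orange and dCAF-like in green. Blue points lie to the right of orange ones for most genes, *Rrm1* has its orange points rightmost, and several green points of tumor 1, a library of 10 cells, lie at 0.

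Between vCAF-like and dCAF-like cells, 4 of 39 members were called, all higher in vCAF-like cells, in a comparison that called 5.69% of genes as higher there, 4.75% as higher in dCAF-like cells and 10.4% in either direction. *Tcf19*, a factor induced at the G1/S boundary, had 51.4 and 29.6 CPM in vCAF-like and 0 and 1.13 in dCAF-like libraries (log2 difference 5.89 ± 1.06, adjusted p = 0.028, edgeR). *Cdc45* had 17.8 and 13.4 CPM against 0 and 0.644 (5.31 ± 1.13, adjusted p = 0.043). *Clspn* (9.84 and 11.3 CPM, adjusted p = 0.024) and *E2f7* (13.8 and 10.7 CPM, adjusted p = 0.036) had no read in either dCAF-like library, so that they were at least 29.9-fold and at least 35.1-fold higher in vCAF-like cells, taking 3 reads over both dCAF-like libraries as the limit.

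With the tumor as a block none of the 4 passed (adjusted p = 0.065 for *Tcf19*, 0.091 for *Cdc45*, 0.073 for *Clspn* and 0.088 for *E2f7*, edgeR). *Rrm1*, at 114 and 129 CPM against 43.3 and 64.1, had a log2 difference of 1.17 ± 0.27 and an adjusted p of 0.053. *Tyms* was level, with 39.0 and 36.4 CPM against 34.8 and 38.6 (0.04 ± 0.52, adjusted p = 0.97). Both vCAF-like libraries were above both dCAF-like ones for 32 of the 39, against 33.2% of all genes, and the median log2 difference was 1.92 over the members and 0.08 over all genes. The dCAF-like library of tumor 1 held 10 cells, and with tumor 2 left out the member median was 7.61. MCM genes differed between the dCAF-like libraries, with 0.355 and 25.1 CPM for *Mcm5*, 0 and 12.4 for *Mcm3* and 1.06 and 17.2 for *Mcm7* in tumors 1 and 2. In tumor 2, 4 of the 29 dCAF-like cells held 50.8% of the member reads and 1 cell held 20.9%.

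Between mCAF-like and dCAF-like cells, *Rrm1* was the member called, in a comparison that called 5.26% of genes as higher in mCAF-like cells, 2.86% as higher in dCAF-like cells and 8.12% in either direction. It had 172 and 148 CPM in mCAF-like and 43.3 and 64.1 in dCAF-like libraries (log2 difference 1.57 ± 0.27, adjusted p = 0.030, edgeR), without overlap, and an adjusted p of 0.057 with the tumor as a block. *Mcm2* had 3.11 and 8.31 CPM against 22 and 17.9 (−1.80 ± 0.58, adjusted p = 0.13). *Tcf19* (3.79 ± 1.00, adjusted p = 0.084) and *Cdc45* (3.71 ± 1.08, adjusted p = 0.11) were again low in dCAF-like cells, and *Clspn* had 22 and 12 reads against 0 and 0, at least 2.42-fold (adjusted p = 0.085). The members had no common direction, with 21 positive and 18 negative differences and a median of 0.20 against 0.07 for all genes.

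Other genes of the replication and cell cycle machinery were taken from fixed lists. Their counts stand beside the 6.04%, 10.4% and 8.12% of all genes called in the 3 comparisons, in the order given above, and the shares of the other replisome genes were near or below these. Between vCAF-like and mCAF-like cells, 1 of 35 other replisome genes was called, *Wdhd1*, a fork factor, with 8.69 and 5.52 CPM against 0 and 0.0710 (1 read in all, ratio 289 with a counting interval of 51.7 to 11427, adjusted p = 0.043, edgeR). Of 32 mitotic genes 1 was called, *Prc1*, a microtubule bundler of the midzone, with 53.4 and 71.1 CPM against 3.65 and 3.98 (4.03 ± 0.43, adjusted p = 0.0096). Of 12 histone genes tested none was called by edgeR, with 4 at an unadjusted p under 0.05. Replication-dependent histone mRNAs lack a poly(A) tail, and Smart-seq2 primes on that tail.

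Of 20 genes of G1/S control 2 were called between vCAF-like and mCAF-like cells, *Ccnd1* and *Rbl1*, and of 6 CDK inhibitors 1, *Cdkn1a*. These lists were not kept out of the clustering as the members were, so their genes may have helped to form the populations, which was not tested. *Ccnd1* had 242 and 166 CPM in vCAF-like and 26.0 and 18 in mCAF-like libraries (3.21 ± 0.39, adjusted p = 0.013, edgeR), and 178 and 293 in dCAF-like ones, so that it was higher in both other populations than in mCAF-like cells (mCAF-like minus dCAF-like −3.42 ± 0.40, adjusted p = 0.011). Both calls held with the tumor as a block (adjusted p = 0.037 and 0.032). *Cdkn1a* was lowest in vCAF-like cells, with 48.9 and 59.0 CPM in vCAF-like, 321 and 371 in mCAF-like and 317 and 156 in dCAF-like libraries (vCAF-like minus mCAF-like −2.68 ± 0.39, adjusted p = 0.020, and minus dCAF-like −2.13 ± 0.38, adjusted p = 0.027). *Rbl1*, the pocket protein p107, had 60.8 and 71.5 CPM in vCAF-like and 17.5 and 20.5 in mCAF-like libraries (1.80 ± 0.32, adjusted p = 0.036, edgeR). *Rb1*, the retinoblastoma protein, was highest in dCAF-like cells with 278 and 172 CPM, against 33.7 and 53.2 in vCAF-like (−2.37 ± 0.46, adjusted p = 0.033) and 20.3 and 10.8 in mCAF-like libraries (−3.85 ± 0.49, adjusted p = 0.014).

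In the comparisons with dCAF-like cells, 6 of 32 mitotic genes were called higher in vCAF-like cells, namely *Bub1*, *Kif11*, *Tpx2*, *Prc1*, *Ndc80* and *Mki67*, the last with 85.9 and 89.3 CPM against 1.42 and 1.45 (5.92 ± 0.56, adjusted p = 0.0051, edgeR). *Rpa1*, a subunit of the single-strand binding protein, had 34.4 and 25.2 CPM in mCAF-like and 86.6 and 111 in dCAF-like libraries (−1.73 ± 0.29, adjusted p = 0.027), and *Rfc1*, the large subunit of the clamp loader, had 30.5 and 34.3 against 77.7 and 77.4 (−1.26 ± 0.24, adjusted p = 0.038). *Mcm9*, a helicase of repair, had 0 and 0.161 CPM (1 read) in dCAF-like libraries, 9.75 and 4.62 in mCAF-like ones (ratio 52.1, counting interval 9.26 to 2066, adjusted p = 0.042, edgeR) and 6.12 and 9.97 in vCAF-like ones (ratio 67.7, 12.1 to 2675, adjusted p = 0.035). *Fbxo5*, an inhibitor of the anaphase-promoting complex, had 9.16 and 7.27 CPM in vCAF-like against 0 and 0.161 in dCAF-like libraries (adjusted p = 0.034). *Hist1h2bc* had 378 and 183 CPM in dCAF-like and 29.6 and 29.6 in vCAF-like libraries (−3.24 ± 0.46, adjusted p = 0.014). Between mCAF-like and dCAF-like cells *Mki67* (4.11 ± 0.53, adjusted p = 0.015) and *Tpx2* (3.65 ± 0.73, adjusted p = 0.041) were called higher in mCAF-like cells. With the tumor as a block, the calls of *Wdhd1* (adjusted p = 0.10), *Rbl1* (0.060), *Fbxo5* (0.083), *Bub1* (0.064), *Kif11* (0.061), *Ndc80* (0.092), *Rpa1* (0.058) and *Rfc1* (0.075) were lost. So were those of *Mcm9* in both comparisons (0.083 and 0.094), of *Cdkn1a* and *Rb1* between vCAF-like and dCAF-like cells (0.062 and 0.068) and of *Tpx2* between mCAF-like and dCAF-like cells (0.087). *Cdkn1a* between vCAF-like and mCAF-like cells had an adjusted p of 0.050 there.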

How the data were processed

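Reads of 43 bp were aligned by the authors to mm10 with STAR 2.3.0 and counted on RefSeq genes. The deposited counts are whole reads per gene without normalization, and the deposited RPKM were computed by the authors with rpkmforgenes. Of 768 wells 727 had at least 10000 non-ERCC reads. No doublet caller was run. Cells were clustered on log2(RPKM + 1) of 500 variable genes (Rtsne 0.17 on 30 principal components, best of 50 runs, and DBSCAN of scikit-learn, eps 2.5). The members, the mitotic, other replisome and histone lists and genes that followed members and mitotic genes (Spearman correlation over 0.2) were left out. Counts summed per tumor and population were tested with edgeR 4.0.16 (TMM, quasi-likelihood, 1 fit of 6 libraries, Benjamini-Hochberg adjusted p of 0.05, mean RPKM of at least 1). On simulated data the comparison of vCAF-like with mCAF-like cells, run on 11711 genes, recovered 6 of 100 genes changed 4-fold, 37 of 100 changed 8-fold and called 0 unchanged ones. Libraries of 1 tumor come from 1 animal and so are paired, and their deviations from the population means correlated by 0.022 to 0.127. All 42 members were named by the cells they were read in, in each comparison those past the threshold or the 5 of smallest p were given, and in other lists those past it or up to 4 of smallest p. The members and lists were chosen with earlier results of these data known. Coordinates and promoters are RefSeq's on GRCm38.p6. Alternatives included DESeq2 1.42.0, its size factors, ERCC totals, other filters and clusterings, thinning and leaving out 1 tumor. Results of 2 genes of the other lists are not reported here.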

Additional observations from a re-analysis of the deposited data

Results flagged for a closer look

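Of the 41 wells under 10000 reads, 11 of tumor 1 and 30 of tumor 2, which entered no comparison, 14 had a read of a member. They held 32 such reads of 13 members, or 319 per 1000000 endogenous reads against 1070 in the wells followed, and no well had more than 3 members. Signal in data outside the main measurement brought them here.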

How the results depend on the processing

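Members called between vCAF-like and mCAF-like, vCAF-like and dCAF-like, and mCAF-like and dCAF-like cells numbered 3, 4 and 1. They became 9, 14 and 6 (4 higher, 2 lower) with DESeq2's Wald test, which called 15.7%, 23.2% and 22.1% of all genes, 0, 0 and 0 with the tumor as a replicate block, 0, 2 and 0 with each cell scaled to the same total, 0, 0 and 0 at an adjusted p of 0.001, and 1, 8 and 2 without the cell richest in member reads of each library, an alternative chosen after seeing the data. ERCC totals gave 1 in the first comparison and 0 in the third, and leaving out cells with an *Epcam* read gave 1 and 2. The cause of these changes was not tested. Under ERCC totals the median of all genes was −0.75 in the first comparison (0.04 otherwise), and the member median there was 1.29. It was 1.77 with scaled cells. Leaving out 1 tumor gave member medians of 1.69 to 2.11, 1.49 to 7.61 and −0.35 to 4.54, and the third was −0.039 without *Epcam* cells. For the 5 members of smallest p in each comparison, all 240 values under the alternatives kept their direction. With the block, 4 other members changed sign between mCAF-like and dCAF-like cells, *Mcm3* (−0.10 to 0.25), *Uhrf1* (−0.41 to 0.10), *Fen1* (−0.06 to 0.03) and *Chaf1a* (0.10 to −0.30).

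The share of replication-high cells was 15.0% and 9.54% at limits of 8 and 12 members, 13.1% without thinning, 12.1% at 100000 reads, 9.56% at 2 reads per gene and 10.9% with another random draw. The share low in mitotic genes was 4.82% at 8 members and 0.565% with no mitotic read at all. The mean level of a member, 0.77 as log2(RPKM + 1), was −2.04 with 0.1 added. The dCAF-like library of tumor 1 held 10 cells.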
